A study of Mus musculus with 6 samples.

Results

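The genes of MHC class I antigen presentation were followed through the cells of the C3Tag mammary gland and tumor by single-cell RNA sequencing. The 10 members were taken by gene name, with no threshold on measured values, out of 31055 counted features: the classical heavy chains H2-K1 and H2-D1, their light chain B2m, the peptide transporter subunits Tap1 and Tap2, the loading factor Tapbp (tapasin), the immunoproteasome subunits Psmb8 and Psmb9, the transcriptional activator Nlrc5 and the non-classical heavy chain H2-T23 (Qa-1). The series held 6 libraries from female C3Tag mice on the FVB/NJ background, in which the SV40 large T antigen is placed under the regulatory region of a rat prostatic steroid-binding protein gene and mammary tumors arise, and every group carried this transgene. The groups were Prepuberty (whole gland at 5 weeks, 2 libraries), DCIS (whole gland with ductal carcinoma in situ at 14 weeks, 2 libraries) and Tumor (palpable tumor at over 18 weeks, 2 libraries), so age and tissue changed with state. The labels do not say that the libraries of a state came from separate animals, and p-values here measure only the spread between libraries.

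A class I molecule is a heavy chain paired with beta-2-microglobulin that shows peptides from inside the cell to CD8 T cells. The peptides are cut by the proteasome, which takes up inducible catalytic subunits such as Psmb8 and Psmb9 under interferon, are pumped into the endoplasmic reticulum by the Tap1-Tap2 transporter, and are fitted onto the heavy chain with the help of tapasin. Interferons are known to raise the transcription of the pathway, and Nlrc5 that of part of its genes. Nearly all nucleated cells express the pathway, and Qa-1 is read by the CD94/NKG2 receptors of NK and T cells.

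The 6 libraries held 21537 cells after filtering and between 28564804 and 57189896 UMIs each (a UMI is 1 counted RNA molecule), with a median of 6568 to 13620 UMIs per cell. Clusters were named from marker genes as epithelial-like, fibroblast-like, endothelial-like, macrophage-like, T-cell-like and 5 smaller classes, and 1836 cells in 5 clusters stayed unnamed. No member was among the genes used for clustering. Any pair of libraries shared 9 to 39 cell barcodes. Tumors were dissociated with a kit of their own by the published methods and like the glands by the labels, so dissociation and the Tumor state cannot be told apart. The methods also give a later library kit for Tumor 2, against the same kit in the labels, and this cannot be told apart from that library. FVB mice carry another MHC haplotype than the reference genome, so UMIs of the closely similar heavy chain genes (H2-K1, H2-D1 and the H2-Q and H2-T genes) may be split between them, and their levels are uncertain in all classes.

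Of the members, 8 lie on chromosome 17 within 2.12 Mb (33915899 to 36032855, GRCm38, GENCODE annotation), among them a run of Psmb9, Tap1, Psmb8 and Tap2, while B2m lies at chr2:122147686-122153083 and Nlrc5 at chr8:94434356-94527272. All 10 are annotated as protein-coding genes. RefSeq promoter windows (GRCm38.p6, 250 bases before to 50 after each start) were found for 8 of the 10 members, and Tap2 and Nlrc5 had none. The stretches below are shown because they hold letters of elements through which genes of the pathway are known to be switched on. They are the bases just before the start of B2m (chr2:122147512-122147686, plus strand), H2-K1 (chr17:34000348-34000522, minus strand), H2-D1 (chr17:35262919-35263093, plus strand) and H2-T23 (chr17:36032702-36032876, minus strand), and the bases between the divergent starts of Psmb9 and Tap1 (chr17:34187331-34187555, read along Tap1). Capitals mark matches to the motifs described next.
B2m: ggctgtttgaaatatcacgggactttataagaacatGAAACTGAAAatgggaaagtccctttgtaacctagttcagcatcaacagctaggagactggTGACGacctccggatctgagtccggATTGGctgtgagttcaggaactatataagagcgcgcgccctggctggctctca
H2-K1: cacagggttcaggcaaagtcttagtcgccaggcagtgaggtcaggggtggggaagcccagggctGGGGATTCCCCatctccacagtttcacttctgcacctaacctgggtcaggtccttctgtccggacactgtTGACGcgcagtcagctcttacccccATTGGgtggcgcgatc
H2-D1: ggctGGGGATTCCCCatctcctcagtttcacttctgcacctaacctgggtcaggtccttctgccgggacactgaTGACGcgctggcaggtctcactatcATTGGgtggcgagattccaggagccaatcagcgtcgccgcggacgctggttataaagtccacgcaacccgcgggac
H2-T23: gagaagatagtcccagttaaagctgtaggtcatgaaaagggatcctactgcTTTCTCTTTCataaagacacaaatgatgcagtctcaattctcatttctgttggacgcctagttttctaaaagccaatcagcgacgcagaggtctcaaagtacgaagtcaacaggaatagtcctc
Psmb9 to Tap1: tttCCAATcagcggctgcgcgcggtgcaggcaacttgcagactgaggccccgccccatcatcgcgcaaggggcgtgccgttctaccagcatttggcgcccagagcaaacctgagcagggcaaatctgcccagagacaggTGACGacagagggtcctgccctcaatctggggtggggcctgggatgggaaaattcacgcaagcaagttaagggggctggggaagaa

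The capitals in these stretches were found by a search of both strands. The core of the interferon-stimulated response element (ISRE, here GAAA, any 2 bases and GAAA) matched B2m from 139 bases before its start and H2-T23 from 124 bases before its start, and 3.44% of all 32851 RefSeq promoter windows held it. The kappaB motif (GGGA, any base, T, any base and CCC) matched H2-K1 from 111 and H2-D1 from 171 bases before the start, where matches on both strands overlap by all but 1 base, and 1.1% of windows held it. The letters TGACG (the core of the X2 box) followed after 20 bases by ATTGG (the core of the Y box) occurred in B2m, H2-K1 and H2-D1 and in 0.094% of windows (31 windows). Alone, TGACG was held by 20.8% and ATTGG by 37.4% of windows, and both occur between Psmb9 and Tap1, on opposite strands. Further matches to CCAAT, the Y core on the other strand, lie in H2-D1 and H2-T23 and are left in lower case. The interferon-gamma activated site (GAS, TTCNNNGAA) matched the window of Psmb8 from 97 bases before its start and 8.3% of windows. A match is a description of the reference letters and not a measured binding site. The search took exact letters, so a missing match does not show that an element is absent.

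Across the cell classes, class I transcripts were found in every class with at least 10 cells in a library. The levels in this paragraph and the next are CPM, UMIs per 1000000 UMIs of the class in a library, given as the median over libraries with the lowest and highest in parentheses. The heavy chain H2-K1 was highest in dendritic-like cells at 2868 (1994 to 3756; 4 libraries), then in T-cell-like cells at 2828 (1822 to 3186; 5 libraries), macrophage-like cells at 2370 (1207 to 2611; 6 libraries), pericyte or smooth muscle-like cells at 2149 (1317 to 2684; 5 libraries) and endothelial-like cells at 2089 (797 to 2499; 6 libraries). It was lower in epithelial-like cells at 1462 (1046 to 2319; 6 libraries), B-cell-like cells at 1366 (1057 to 1676; 2 libraries), fibroblast-like cells at 1304 (895 to 1805; 6 libraries) and myoepithelial-like cells at 1046 (823 to 3033; 6 libraries). Each of these classes overlapped its neighbour in the order, and only Schwann-like cells stood apart at 114 (84.4 to 153; 4 libraries, none of them Tumor). These levels are a description and carry no test.

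Other members kept parts of this order. Schwann-like cells were lowest and apart from the next class also for H2-D1, at 285 (233 to 389) against 2149 (1329 to 4982) in myoepithelial-like cells, for Tap1, at 3.52 (0 to 7.67) against 33.0 (26.2 to 43.8) in the same cells, and for H2-T23, at 8.15 (0 to 13) against 73.0 (58.9 to 84.2) in epithelial-like cells. For B2m, Schwann-like cells reached 2554 (2178 to 2911) and overlapped epithelial-like cells at 2422 (1572 to 3893), which had the lowest median, while macrophage-like cells at 9648 (4010 to 10182) and dendritic-like cells at 9615 (7178 to 10537) were highest. Dendritic-like cells led for 8 of the 10 members, and for Psmb9, at 484 (439 to 580), they did not overlap the next class, B-cell-like cells at 246 (154 to 338). The other immunoproteasome subunit, Psmb8, was at 1283 (874 to 1807) in dendritic-like and 439 (354 to 558) in epithelial-like cells. Tapbp ran from 305 (223 to 489) in dendritic-like to 77.5 (61.4 to 184) in Schwann-like cells, with every neighbour overlapping. Nlrc5 was the scarcest transcript, at a median of 17.6 (0 to 31.4) in dendritic-like, 9.61 (3.57 to 19.4) in endothelial-like and 2.98 (1.44 to 7.17) in epithelial-like cells. The classes are ranked over unlike sets of libraries. Dendritic-like cells were too few in Prepuberty 1 (7 cells) and Tumor 2 (6 cells), and B-cell-like levels rest on Prepuberty 2 and Tumor 1 alone.

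The genes most like each member were read over the 50 sums of a class in a library, among 5602 genes with a mean of at least 20 CPM, by Pearson's r of the levels; the sums share libraries, and r is a description. H2-K1 was most like H2-D1 (r = 0.955), then H2-Q7 (0.899) and Sp140 (0.835). Psmb8 and Psmb9 were most like each other (0.893), as were Tap2 and, among the members, Tapbp (0.743). Tap1 was most like H2-T23 (0.869) and then Samhd1 (0.866), while B2m was most like Phf11b (0.850) and Cd274 (0.774), with no other member among its first 3. Nlrc5 was below the minimum level.

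**Figure D1:**
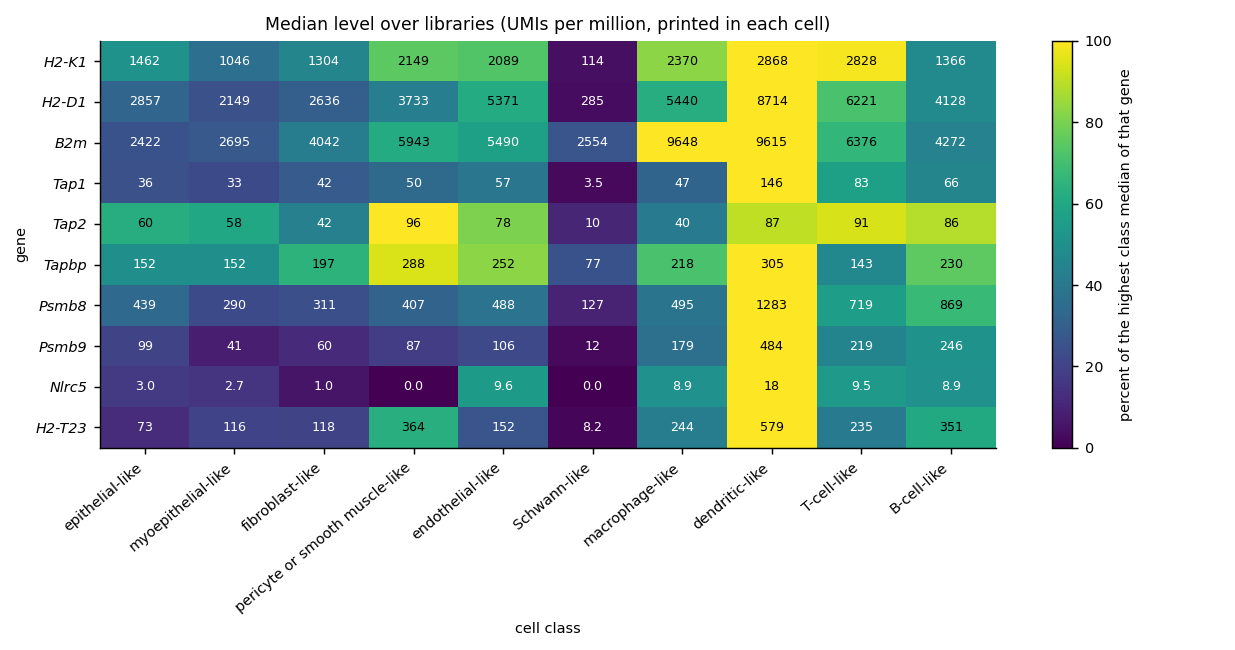
Median level of each member (rows) in each cell class (columns), in CPM, over the libraries with at least 10 cells of that class; the median is printed in each cell and the color gives it as a percent of the highest class median of that gene. Dendritic-like cells hold the highest median for 8 of 10 members, and H2-K1 falls from 2868 there to 114 in Schwann-like cells.

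The states were then compared within each class, to ask how the pathway differs between the gland before puberty, the gland with DCIS and the palpable tumor. For this the UMIs of a class were summed per library, scaled by the trimmed mean of M-values (TMM), given below as scaled CPM, and tested with edgeR's quasi-likelihood test with Benjamini-Hochberg adjustment over all genes tested, at 0.05. Scaled values hold within a class and are not compared between classes. TMM bears on the direction of small changes: with library totals alone, an alternative chosen after seeing the data, the median log2 change over all genes from DCIS to Tumor moved from 0.08 to 0.49 in epithelial-like, from 0.13 to 0.86 in fibroblast-like, from -0.02 to 0.36 in endothelial-like and from 0.06 to 0.66 in macrophage-like cells. The split of called genes moved from 1049 higher and 739 lower to 3088 and 440 in fibroblast-like, from 829 and 777 to 1429 and 448 in endothelial-like and from 246 and 357 to 978 and 187 in macrophage-like cells. Values are listed in the order Prepuberty 1, Prepuberty 2, DCIS 1, DCIS 2, Tumor 1, Tumor 2.

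In endothelial-like cells, heavy chains, transporter, tapasin and Nlrc5 were lower in Tumor than in DCIS. Of the 10 members, 7 fell (H2-K1, H2-D1, Tap1, Tap2, Tapbp, Nlrc5 and H2-T23) and 0 rose, where 15.0% of the 10688 genes tested were called in either direction and 7.27% fell. The median log2 fold change of the 10 was -1.53, against -0.02 over all genes tested, and all 10 values were negative. Both Tumor libraries lay below both DCIS libraries for 9 of 10 members, against 31.1% of all genes. The Tumor sums were small, 79 cells with 841468 UMIs and 33 cells with 269899 UMIs, against 355 to 712 cells in the other libraries.

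The classical heavy chains, which hold the peptide, both fell. H2-K1 stood at 2097, 2125, 3152, 2386, 1112 and 656 scaled CPM. Both tumors were lower than any gland, and the change against DCIS was -1.64 ± 0.35 on the log2 scale (SE; 3.12-fold lower; adjusted p = 0.0143). H2-D1 stood at 4982, 6154, 7663, 6579, 3526 and 1824, again without overlap, with a change of -1.41 ± 0.39 (2.66-fold lower; adjusted p = 0.0368). The shared light chain B2m stood at 5940.3, 4619.6, 9540.2, 6836, 4765 and 1540.4. Its Tumor values lay below those of DCIS but overlapped Prepuberty, and its change of -1.37 ± 0.50 did not pass (adjusted p = 0.0948).

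Among the genes that supply and load peptides, Tap1 was at 59.8, 55.3, 109, 63.2, 27.7 and 30.5, and its change was -1.58 ± 0.35 (3-fold lower; adjusted p = 0.0155). Tap2, the partner of Tap1 in the transporter, was at 115, 142, 81.8, 101, 41.6 and 30.5 and changed by -1.29 ± 0.29 (2.44-fold lower; adjusted p = 0.0181). Tapbp, which bridges transporter and heavy chain, was at 319, 342, 294, 302, 139 and 70.2 and changed by -1.47 ± 0.33 (2.77-fold lower; adjusted p = 0.0166). The immunoproteasome subunits did not pass. Psmb8 was at 634, 589.9, 610.2, 549, 271 and 61 (-1.75 ± 0.55; adjusted p = 0.0726), and Tumor 2 rested on 20 UMIs. Psmb9 was at 118, 112, 124, 97.4, 121 and 27.5 (-0.44 ± 0.49; adjusted p = 0.576), so that Tumor 1 lay among the glands and Tumor 2, with 9 UMIs, apart from them.

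The non-classical chain H2-T23 had the smallest adjusted p of the members. It was at 193, 150.0, 293, 149, 62.3 and 54.9, and both tumors lay under every gland, with a change of -1.90 ± 0.36 (3.73-fold lower; adjusted p = 0.00875). The activator Nlrc5 was at 12, 7.85, 24.4, 11.5, 3.46 and 3.05 and changed by -2.41 ± 0.71 (adjusted p = 0.0475), but its Tumor values rested on 3 UMIs and 1 UMI.

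Against Prepuberty, 4 of the 10 members fell in Tumor (12.6% of genes called in either direction, 5.37% lower). They were Tap2 (-1.78 ± 0.29; adjusted p = 0.00393), Tapbp (-1.62 ± 0.33; adjusted p = 0.0109), H2-T23 (-1.53 ± 0.36; adjusted p = 0.0221) and H2-K1 (-1.25 ± 0.35; adjusted p = 0.0427). This comparison shares its Tumor libraries with the one above and is no second observation. Between DCIS and Prepuberty 0 of 10 were called by edgeR and 0 by DESeq2 (0.0% of genes; 0 members under an unadjusted p of 0.05), and values ran from -0.49 ± 0.24 for Tap2 to 0.86 ± 0.41 for Nlrc5.

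The makeup of the class differed with state. Cluster 6 of the endothelial-like cells, led by Gpihbp1, a capillary gene, held 89.9% and 90.9% of them in the Tumor libraries and 39.7% to 68.8% in the glands, and the rest was cluster 10, led by Ackr1, a venous gene. Within cluster 6 alone, H2-K1 was at 2231, 2241, 3531, 2668, 1153 and 681. There 6 of the 10 members fell against DCIS, by -1.75 for H2-K1, -1.73 for H2-T23 and -1.49 for Tapbp on the log2 scale, and Nlrc5 no longer passed. The share of all genes called in cluster 6 alone is not given, so the 6 cannot be set against it. Cluster 6 need not hold the makeup constant. At resolution 1.2 the class had a cluster with 102 to 275 cells in each gland but 4 and 3 in Tumor, and another with 64 to 189 in each gland and 68 and 27 in Tumor, and without integration 66 and 16 Tumor cells formed a cluster with no gland cell. The summed level of the 8 endothelial markers was 6208 to 6814 CPM in Tumor and 4397 to 5549 in the glands, and all 8 were detected in every library. Fibroblast markers (8 listed, 5 to 8 detected in Tumor) summed to 293 to 340 in Tumor, 63.1 to 80 in DCIS and 293 to 335 in Prepuberty. Epithelial markers (11 listed, 5 to 11 detected in Tumor) summed to 37.1 to 256 in Tumor, 54.6 to 77.2 in DCIS and 38.2 to 70.6 in Prepuberty. A T antigen UMI was found in 5 of 79 cells in Tumor 1, with 208 such UMIs in all, and in 0 of 33 in Tumor 2. Erythroid markers reached 3160 in Tumor 2, against at most 666 elsewhere. The median mitochondrial share of a cell was 3.28% and 4.44% in the Tumor libraries and 2.01% to 2.32% in the glands. Leaving out the cells that held T antigen was among the alternatives given below. The part of the other signals in the result was not tested. The 7 calls became 0 without DCIS 1, 4 without DCIS 2 and 2 without Tumor 2, although calls over all genes also went from 1606 to 587, 763 and 1117, and the 4 calls against Prepuberty became 2 without either Prepuberty library and 7 without Tumor 1. The changes of H2-K1, Tap1, Tap2, Tapbp and H2-T23 against DCIS kept their sign in all 18 alternatives, between -0.93 for Tap2 and -2.34 for H2-T23.

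**Figure D2:**
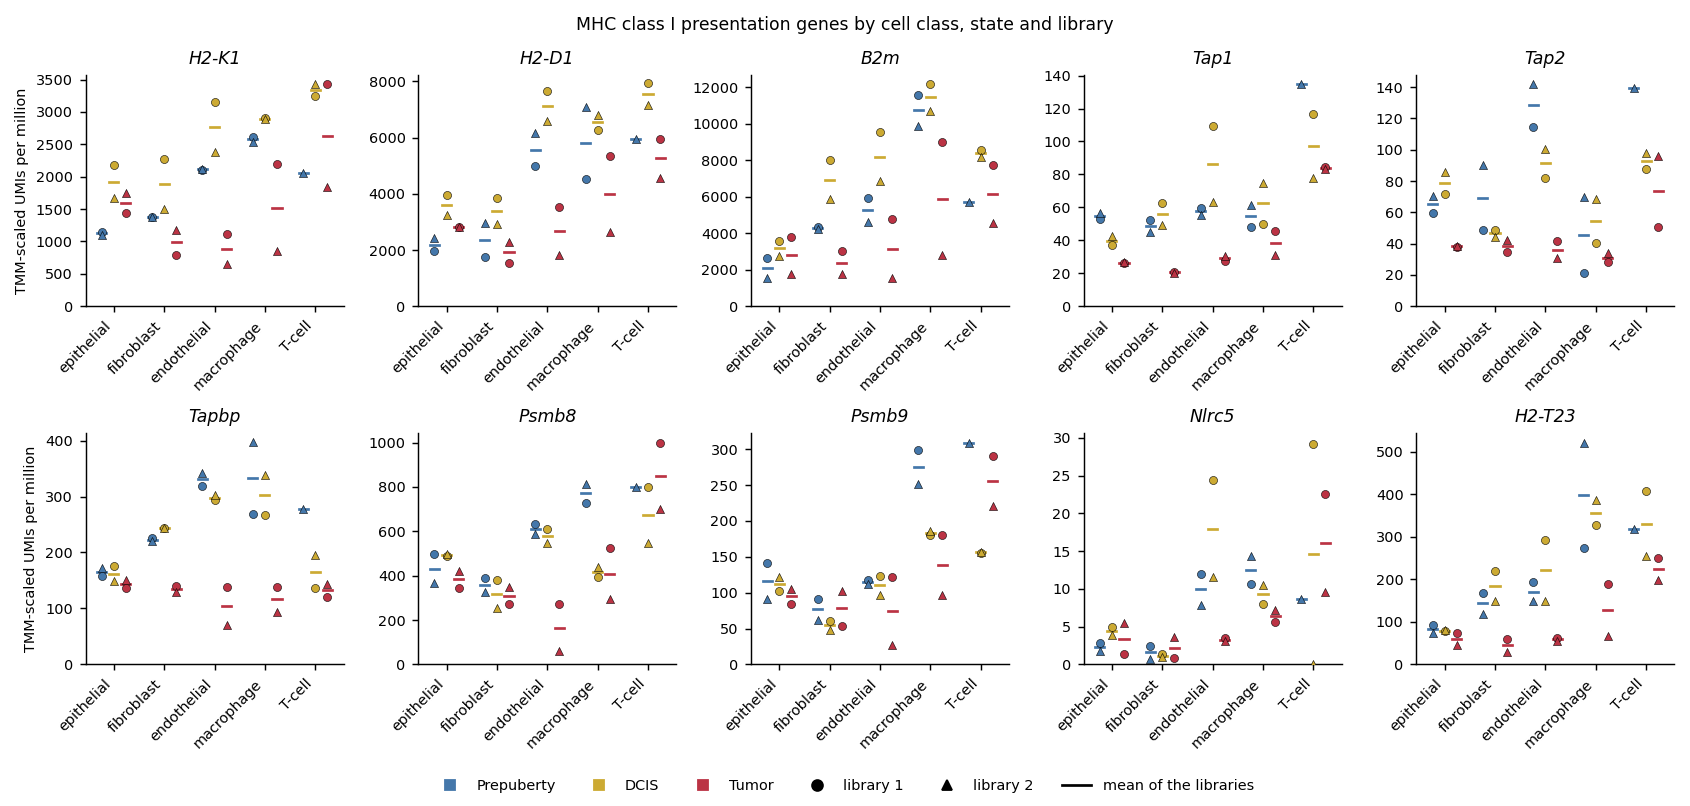
Scaled CPM of each member in 5 cell classes, with 1 point per library (circle: library 1; triangle: library 2), short lines at the mean of a state and colors for the states. In endothelial-like cells both Tumor points of H2-K1 (1112 and 656) lie under the 4 gland points (2097 to 3152), while in epithelial-like cells the Tumor points (1432 and 1751) lie above both Prepuberty points, 1 of them between the DCIS points (2174 and 1672) and 1 below.

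In fibroblast-like cells 3 members fell from DCIS to Tumor, B2m, Tap1 and H2-T23, and 0 rose (14.7% of 12142 genes called, 6.09% lower). The median over the 10 was -0.84 against 0.13 over all genes, 8 values were negative, and 7 members had both Tumor libraries below both DCIS libraries (29.3% of all genes). B2m stood at 4315, 4250.1, 7999, 5869, 3032 and 1738 scaled CPM, with both tumors under every gland, and changed by -1.54 ± 0.39 (2.91-fold lower; adjusted p = 0.0369). Tap1 stood at 52.6, 44.8, 62.7, 49.1, 20.7 and 20.3 and changed by -1.44 ± 0.33 (2.72-fold lower; adjusted p = 0.0259). H2-T23 stood at 169, 118, 219.5, 149, 59.8 and 29.7 and changed by -2.05 ± 0.44 (4.13-fold lower; adjusted p = 0.0222). For each of the 3 genes the Tumor values lay below all 4 glands.

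The classical heavy chains did not pass in these cells. H2-K1 was at 1383, 1379.7, 2272, 1508, 789.6 and 1183 (-0.94 ± 0.37; adjusted p = 0.117) and H2-D1 at 1768, 2961, 3843, 2941, 1548 and 2295 (-0.82 ± 0.40; adjusted p = 0.188). Tapbp was at 225, 220.3, 245, 244, 139.5 and 129 (-0.86 ± 0.29; adjusted p = 0.0807), with both tumors below the glands. Tap2 overlapped between the states (-0.27 ± 0.38; adjusted p = 0.661), as did Psmb8 (-0.04 ± 0.34; adjusted p = 0.945). Psmb9 (0.53 ± 0.41; adjusted p = 0.396) and Nlrc5 (1.00 ± 0.95; adjusted p = 0.499) had positive values, which rested on Tumor 2, at 103 for Psmb9 against 53.5 in Tumor 1.

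Against Prepuberty, Tap1 (-1.25 ± 0.32; adjusted p = 0.0492) and H2-T23 (-1.68 ± 0.43; adjusted p = 0.0482) fell (9.39% of genes called, 2.91% lower), both near the threshold. Between DCIS and Prepuberty edgeR and DESeq2 each called 0 of 10, with 0 under an unadjusted p of 0.05 (0.0% of genes). The 3 calls against DCIS became 0 without DCIS 1, DCIS 2 or Tumor 2, and the 2 against Prepuberty became 0 without any library but Tumor 1. Without integration the calls were 1 and 0. The states also filled different clusters of the class. Cluster 12 held 340 of 1280 cells in DCIS 2 but 14 and 1 in the Tumor libraries, and without integration a cluster of 652 and 1206 Prepuberty and 123 and 482 DCIS cells held no Tumor cell, while 190 cells of Tumor 2 lay in a cluster with 1 gland cell.

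Tumor fibroblast-like cells carried other signals beside these values. Summed epithelial markers, all 11 detected, were at 179 to 691 CPM in Tumor against 18.1 to 94.5 in the glands, and summed myoepithelial markers (7 of 9 detected) at 443 to 1110 against 23.9 to 30.1. T-cell markers were at 41.9 to 160 against 1.9 to 8.27, and pericyte markers at 219 to 221 against 18.5 to 94.9. A T antigen UMI was found in 31.9% and 46.9% of the Tumor fibroblast-like cells and in at most 0.627% of those in the glands. Without the cells that held one, 3 members were called against DCIS and 0 against Prepuberty; the part of the other signals was not tested.

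In epithelial-like cells, the compartment that gives rise to the tumor, 0 of 10 members were called between any pair of states by edgeR. This class did not hold all Tumor cells with T antigen. A T antigen UMI was found in 65.2% of 492 unnamed cells in Tumor 1 and 48.1% of 495 in Tumor 2. It was also found in 54.8% of 73 and 54.1% of 111 myoepithelial-like cells, and neither group was tested. The makeup of the epithelial-like class differed with state. Cluster 7 held 23 and 43 cells in Prepuberty, 31 and 25 in DCIS and 876 and 293 in Tumor. Cluster 11 held 349 and 59, 150 and 354, and 18 and 52 in the same order. Without integration, clusters with 1831 and 1498 Tumor 1 cells held at most 8 cells of any gland. Summed myoepithelial markers were at 1452 to 2470 CPM in Tumor, 502 to 1059 in DCIS and 239 to 515 in Prepuberty. Their part in the values was not tested. Between Tumor and DCIS 1.14% of 13378 genes were called, 1 member had an unadjusted p under 0.05 and DESeq2 called 1 member. All 10 values were negative, from -1.04 to -0.17, with a median of -0.36 against 0.08 over all genes, and 5 members had both Tumor libraries below both DCIS libraries (26.8% of all genes). H2-K1 stood at 1142, 1107, 2174, 1672, 1432 and 1751 scaled CPM and H2-D1 at 1959.7, 2433, 3948, 3254, 2811 and 2810.4. The heavy chains were thus higher in both DCIS than in both Prepuberty libraries, by 0.77 ± 0.31 and 0.71 ± 0.31, but neither passed (adjusted p = 0.392 and 0.415; 0.0% of genes called, 1 member under an unadjusted p of 0.05, 0 by DESeq2). B2m, at 2664, 1553, 3554, 2769, 3788 and 1793, had its highest and its second lowest value in the 2 Tumor libraries.

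The transporter subunits came nearest to the threshold in these cells. Tap2 was at 59.9, 70.2, 71.8, 85.8, 37.6 and 38.8, with a change against DCIS of -1.04 ± 0.27 that missed the threshold (2.06-fold lower; adjusted p = 0.0819). Tap1 was at 52.7, 56.4, 36.9, 42.7, 26.0 and 26.8, and its change against Prepuberty of -1.04 ± 0.26 also missed it (adjusted p = 0.06; 5.55% of genes called, 2 members under an unadjusted p of 0.05, 1 by DESeq2). In both genes the 2 Tumor libraries lay close to each other and under all 4 glands. Without TMM the sign turned positive for 7 of the 10 members, none of them called. Tapbp (-0.17 ± 0.26), Psmb8 (-0.37 ± 0.29), Psmb9 (-0.24 ± 0.31) and Nlrc5 (-0.37 ± 0.69) had adjusted p from 0.474 to 0.774 against DCIS. H2-T23 was at 91.9, 74.1, 78.3, 80.4, 72.9 and 44.5 (-0.43 ± 0.32; adjusted p = 0.434), with 1 Tumor library near the glands.

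**Figure D3:**
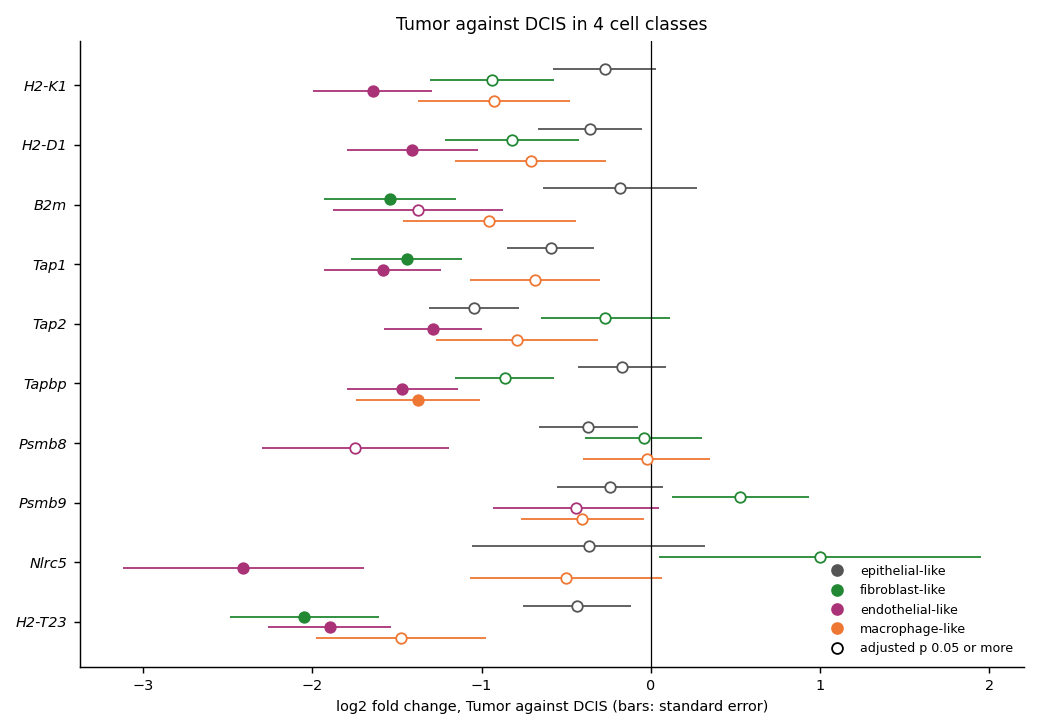
Log2 fold change of Tumor against DCIS (horizontal axis) for each member in 4 cell classes, with bars of 1 standard error; filled points passed an adjusted p of 0.05 over all genes of the class. The epithelial-like points are all open and between -1.04 and -0.17, and 7 endothelial-like points are filled, between -2.41 and -1.29.

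Whether the Tumor change differed between epithelium and stroma was tested as an interaction in 1 model over 4 classes, with the library as a block. Against fibroblast-like cells, the epithelial-like change was less negative for B2m by 1.36 ± 0.31 (adjusted p = 0.0109) and for H2-T23 by 1.69 ± 0.49 (adjusted p = 0.0397), 2 of 10 members, where 10.7% of 13810 genes were called and 4.62% in this direction. Against endothelial-like cells it was less negative for B2m by 1.38 ± 0.31 (adjusted p = 0.0224) and for Tapbp by 1.43 ± 0.36 (adjusted p = 0.0365), again 2 of 10 (3.69% of genes; 1.77% in this direction). From fibroblast-like cells 6 of the 10 differences were positive and 4 negative, down to -1.31. From macrophage-like cells 7 were positive and 3 negative. All 10 differences from endothelial-like cells were positive, with a median of 1.40 against 0.10 over all genes. That of H2-K1, 1.5 ± 0.51, did not pass (adjusted p = 0.127). Against macrophage-like cells edgeR called 0 of 10 and DESeq2 2, with 3 under an unadjusted p of 0.05 (4.65% of genes called), and the value nearest the threshold was Tapbp at 1.22 ± 0.35 (adjusted p = 0.0573). The calls against fibroblast-like cells became 0 without DCIS 1 or DCIS 2 and 1 without Tumor 1 or Tumor 2, and those against endothelial-like cells became 0 without DCIS 1, DCIS 2 or Tumor 2 and 6 without Tumor 1. Without integration 0 were called against either class, and without the cells that held T antigen 1 against fibroblast-like and 0 against endothelial-like cells.

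In macrophage-like cells, professional presenters of antigen, Tapbp was the 1 member of 10 that fell, against DCIS by 1.37 ± 0.37 on the log2 scale (2.59-fold lower; adjusted p = 0.0371; 7.94% of 7595 genes called, 4.7% lower) and against Prepuberty by 1.52 ± 0.37 (adjusted p = 0.0251; 6.66% of genes called, 4.41% lower). It stood at 269, 398, 267, 339, 139 and 94, with both tumors below the glands. All 10 values against DCIS were negative (median -0.75 against 0.06 over all genes), and 9 members had both Tumor libraries below both DCIS libraries (28.2% of all genes). The 2 Tumor libraries differed widely. H2-K1 stood at 2619.7, 2534, 2906, 2891, 2197 and 849, and B2m at 11564, 9879, 12159, 10716, 8978 and 2822, so that Tumor 1 was close to the glands and Tumor 2 far below.

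Those changes did not pass, for H2-K1 (-0.93 ± 0.45; adjusted p = 0.207), B2m (-0.95 ± 0.51; adjusted p = 0.256) or H2-T23 (-1.48 ± 0.50; adjusted p = 0.0921). Psmb8 was higher in Prepuberty (728 and 814) than in DCIS (392 and 441) or Tumor (525 and 294), a difference of -0.89 ± 0.38 for DCIS against Prepuberty that did not pass (adjusted p = 0.428; 0 of 10 members called by edgeR and by DESeq2, 1 under an unadjusted p of 0.05, 0.171% of genes called). Neutrophil markers, all 5 detected, summed to 935 CPM in Tumor 1 and 5161 in Tumor 2 of this class, against 40.8 to 316 in the glands. Without integration the class split largely by state. A cluster led by Pf4 held 99, 78, 235 and 162 gland cells and 59 and 38 Tumor cells. Another, led by C1qa, held 0, 3, 4 and 6 gland cells and 337 and 107 Tumor cells. The part of this makeup in the values of the members, and of the interferon genes below, was not tested. In cells with a UMI of a C1q gene, a macrophage product, 1 of the 10 members was called in each Tumor comparison. The share of all genes called in these cells is not given, and in the whole class it was 7.94% and 6.66%. A count of 1 is near such a share and is not read as a result about the members. The count of 1 against DCIS became 0 without DCIS 1, DCIS 2 or Tumor 2, after thinning and without TMM, and 4 without Tumor 1. The count of 1 against Prepuberty became 0 without Prepuberty 2, DCIS 1, DCIS 2 or Tumor 2, with the 4 libraries alone and without TMM, 2 after thinning or with no filter, and 6 without Tumor 1.

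In T-cell-like cells, the readers of class I, 0 of 9 members tested were called in any comparison by edgeR or DESeq2 (2.12% of 4288 genes called between Tumor and DCIS, 0.21% between DCIS and Prepuberty and 0.933% between Tumor and Prepuberty). At an unadjusted p of 0.05 the counts were 0, 0 and 1. Prepuberty 1 held 8 of these cells and was left out, so that the comparisons with Prepuberty rest on a single library assumed to vary like the other states, and Nlrc5 was too scarce to test. H2-K1 stood at 2059, 3243, 3438, 3425 and 1834 from Prepuberty 2 to Tumor 2, and B2m at 5697, 8551, 8185, 7722 and 4584, with Tumor 2 lowest for both. Tumor 1 lay between the DCIS libraries for H2-K1 and below them for B2m. Both Tumor libraries lay below both DCIS libraries for 3 of the 9 members (19.7% of all genes). Psmb9 was at 309, 156, 156, 290.4 and 221 (0.71 ± 0.50 for Tumor against DCIS; adjusted p = 0.601), the widest of the positive values.

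Within the epithelial-like cells, those with at least 1 T antigen UMI were compared with those without in the DCIS and Tumor libraries, with the library as a block. None of the 10 members was called by edgeR or DESeq2 (1.01% of 12061 genes called), while 3 had an unadjusted p under 0.05. Tap2 was lower in cells with T antigen in 4 of 4 libraries, at 64.5 against 79.9 scaled CPM in DCIS 1, 83.9 against 92.6 in DCIS 2, 36.6 against 46.8 in Tumor 1 and 38.2 against 41.5 in Tumor 2, a change of -0.23 ± 0.07 (adjusted p = 0.153). H2-D1 was also lower in 4 of 4 libraries, at 3872 against 4156, 3292 against 3470.1, 2724 against 3575 and 2750.1 against 3049 (-0.18 ± 0.07; adjusted p = 0.237). The count of 4 holds after TMM scaling only: in plain CPM DCIS 2 was at 74.7 against 74.4 for Tap2 and 2931 against 2788 for H2-D1, so not lower in cells with T antigen, and both genes were lower in the other 3 libraries. H2-T23 was lower in 3 of 4 (-0.30 ± 0.10; adjusted p = 0.199) and Tapbp in 2 of 4 (-0.01 ± 0.07; adjusted p = 0.991). Cells with T antigen were deeper, with a median of 15383 against 8191 UMIs in Tumor 1 and 15477 against 7568 in DCIS 1. After each cell was thinned to 3000 UMIs before the call, 0 members were called as well.

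**Figure D4:**
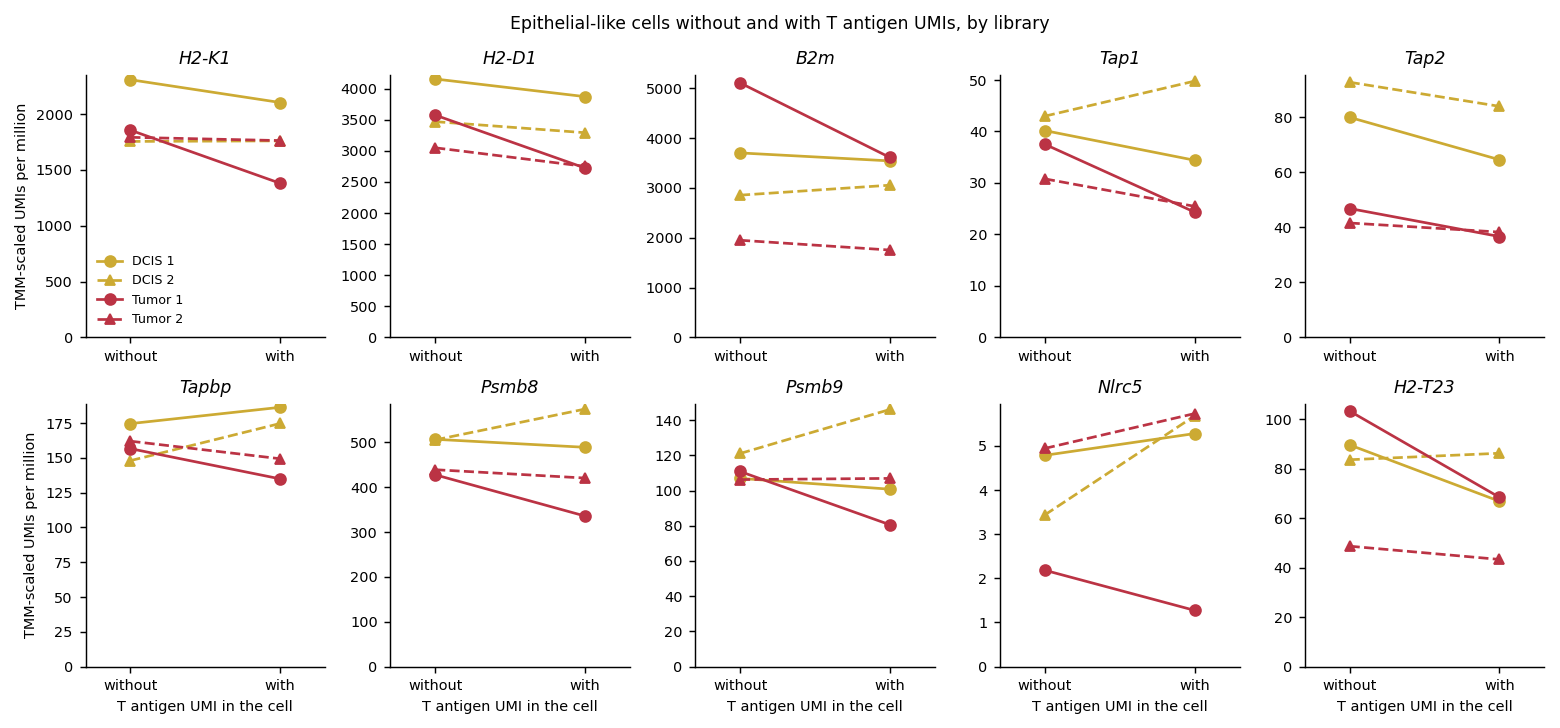
Scaled CPM of each member in epithelial-like cells without (left) and with (right) a T antigen UMI, with 1 line for each of the 4 DCIS and Tumor libraries. On this scale Tap2 and H2-D1 go down along all 4 lines, and the distance between the Tumor and DCIS lines of Tap2 is larger than the slope of any of them.

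Other genes of the pathway were read from lists of the remaining class I genes and peptide suppliers (28 genes, 27 in the files), interferon signalling and targets (32 genes) and receptors of class I (17 genes). In endothelial-like cells 6 of 22 tested genes of the first list fell from DCIS to Tumor and 1 rose, where 7.27% of all genes fell. The fall was steepest in the Qa-2 genes H2-Q6, at 65.0, 72.7, 139.6, 155.5, 11.5 and 12.2 scaled CPM (-3.65 ± 0.31; adjusted p = 0.000312), and H2-Q7, at 170.6, 128.6, 459.6, 316.6, 49.6 and 15.3 (-3.43 ± 0.45; adjusted p = 0.00209). H2-Q4 (-2.31) and H2-T22 (-2.07) also fell. The lipid-presenting class I-like gene Cd1d1 rose (3.53 ± 0.58; adjusted p = 0.00452), from 2.2 and 2.4 in DCIS to 28.9 and 24.4 in Tumor, on 25 and 8 UMIs. The list's median was -0.65 against -0.02 over all genes.

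In the other classes the list had 2 of 22 genes lower in fibroblast-like cells, where 6.09% of all genes were lower (H2-T22 by 2.67 and Hspa5 by 2.08 on the log2 scale, list median -0.44). In macrophage-like cells 2 of 19 were lower, where 4.7% of all genes were lower (H2-T22 by 2.55 and the constitutive proteasome subunit Psmb6 by 1.36, list median -0.03). In epithelial-like cells 0 of 25 were called by edgeR, where 1.14% of all genes were called (list median -0.03, 7 under an unadjusted p of 0.05). In T-cell-like cells 1 of 19 was called by edgeR, higher in Tumor than in DCIS, where 2.12% of all genes were called. There 13 values were positive and 6 negative (list median 0.36 against 0.06 over all genes).

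Of the interferon genes, 11 of 30 tested fell from DCIS to Tumor in macrophage-like cells and 1 rose, where 4.7% of all genes fell, with a median of -1.09 against 0.06 over all genes, among them the antiviral gene Rsad2 (-3.89 ± 0.57) and Ifit2 (-3.62 ± 0.42). Rsad2 stood at 3222, 1799.9, 1277, 1241, 129 and 40.5, below every gland in both tumors. Ifnb1, the gene of interferon beta, fell as well, with 194 and 591 UMIs in Prepuberty, 25 and 11 in DCIS and 3 and 0 in Tumor. Ciita, the class II activator, rose, from 1 and 2 UMIs in DCIS to 21 and 49 in Tumor (adjusted p = 0.0382). In endothelial-like cells 5 of 29 fell (7.27% of all genes) and Irf8 rose (2.17 ± 0.30), with Gbp2, an interferon-gamma target, at 235, 260, 220.4, 162, 65.8 and 21.4 (-2 ± 0.41; adjusted p = 0.0125). In fibroblast-like cells 5 of 30 fell (6.09% of all genes), among them Gbp5 (-4.03 ± 0.92, on 9 UMIs in each tumor), Ifit3 (-3.59 ± 0.88) and the kinase gene Jak2 (-2.12 ± 0.35). In epithelial-like cells 0 of 31 were called by edgeR against DCIS (1.14% of all genes, 11 under an unadjusted p of 0.05, median -0.54 against 0.08). Against Prepuberty 3 of the 31 fell there, Jak2 (-3.37 ± 0.45), Ifit3 (-2.82 ± 0.50) and Stat2 (-1.67 ± 0.29), where 5.55% of all genes were called. In T-cell-like cells 0 of 23 were called by edgeR between Tumor and DCIS (2.12% of all genes). There 15 values were positive and 8 negative, with a median of 0.51 against 0.06 over all genes.

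Of the class I receptors, 7 of 17 were abundant enough to test in T-cell-like cells. The activating receptor gene Klrc2 was higher in Tumor than in Prepuberty, with 1 UMI in Prepuberty 2 and 17 and 43 UMIs in Tumor. Prepuberty was a single library here, so its spread could not be measured. The NK markers of this class moved with it, 5 of 5 detected and summed to 304 CPM in Prepuberty 2 and 1052 to 3001 in Tumor, and their part in the result was not tested. In macrophage-like cells 4 of the 17 were tested, and edgeR called 0 between any pair of states. Of all genes in that class, 7.94% were called between Tumor and DCIS, 0.171% between DCIS and Prepuberty and 6.66% between Tumor and Prepuberty. In epithelial-like cells only 1 of the 17 was abundant enough to test, the Ly49 gene Klra4. It rose against DCIS (edgeR, adjusted p = 0.0458), where 1.14% of all genes were called. It had 312 and 136 UMIs in the Tumor libraries and 0 in each of the other 4.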

How the data were processed

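Single cells of 6 glands or tumors were sequenced with a droplet 3′ method. The authors deposited filtered UMI counts per gene and cell, made with Cell Ranger 3.0.2 per the file headers on build mm10 per the submitters' notes. Cells with under 200 genes (546 of 23835) or past 10% mitochondrial UMIs (1045) were removed, as were 707 cells with the highest Scrublet scores (0.8% per 1000 cells; the automatic threshold marked 64). Clusters came from Seurat 5.3.0 (2000 variable genes, 20 dimensions, resolution 0.8) and were named from at least 3 markers with a fold of 2 and a share of 25%. Cell types are rebuilt and may differ from those of the study.

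UMIs were summed per library and class (at least 10 cells) and tested with edgeR 4.0.16 (TMM, quasi-likelihood, libraries of all 3 states in 1 fit), since the deposited values are raw counts. Low genes were filtered, and p-values were adjusted over all genes tested in a class. Levels in CPM (UMIs per 1000000) carry counting error beside the spread between libraries. Differences between classes used the library as a block. R 4.3.3, limma 3.58.1, DESeq2 1.42.0, Python 3.11.15 and scanpy 1.11.5 were used, and the tests were tried on simulated data. Alternatives were DESeq2 1.42.0, RLE scaling, no filter, a mitochondrial limit of 5%, resolution 1.2, no integration, a replicate block, fewer libraries and cells without T antigen. In another, called thinning, the library sums were drawn down to the smallest sum of their class. For the T antigen comparison alone, cells were also thinned to 3000 UMIs before the call. Added after seeing the data were library totals without TMM, single clusters and macrophage-like cells with a C1q UMI.

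The 10 members and the other gene lists were chosen with earlier results of these data known. All members are named, and of each other list at most 5 called genes with the largest change in a comparison.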

Additional observations from a re-analysis of the deposited data

Results flagged for a closer look

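With 2 libraries per state no library could be tested as standing apart from its group. The change from DCIS to Tumor differed between classes, by an interaction term, for 3 members. In B2m the epithelial-like change was above that of fibroblast-like cells by 1.36 ± 0.31 on the log2 scale (edgeR, adjusted p = 0.0109) and above that of endothelial-like cells by 1.38 ± 0.31 (adjusted p = 0.0224). In H2-T23 it was above that of fibroblast-like cells by 1.69 ± 0.49 (adjusted p = 0.0397), and in Tapbp above that of endothelial-like cells by 1.43 ± 0.36 (adjusted p = 0.0365). The B2m values rest on an epithelial change of -0.18 ± 0.45 with the Tumor libraries at 3788 and 1793 scaled CPM (UMIs per 1000000 after TMM scaling). Without integration none of these differences was called by edgeR.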

How the results depend on the processing

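Over single members and alternatives, 767 values kept their direction and side of the threshold, 121 lost a call, 15 gained one and 29, none of them called, changed sign from DCIS to Tumor. Without TMM the log2 change became 0.15 for H2-K1, 0.0454 for H2-D1, 0.16 for B2m, 0.24 for Tapbp, 0.0561 for Psmb8, 0.19 for Psmb9 and 0.14 for Nlrc5 in epithelial-like cells, 0.48 for Tap2 and 0.71 for Psmb8 in fibroblast-like cells, and 0.52 for Psmb8, 0.14 for Psmb9 and 0.10 for Nlrc5 in macrophage-like cells. Leaving out 1 library gave -0.82 to 0.23 for B2m and -1.67 to 0.30 for Nlrc5 in epithelial-like cells, -0.32 to 0.23 for Psmb8, -0.0856 to 0.88 for Psmb9 and -0.61 to 1.60 for Nlrc5 in fibroblast-like cells, -2.11 to 0.13 for Psmb9 in endothelial-like cells and -0.55 to 0.35 for Psmb8 in macrophage-like cells. In fibroblast-like cells Psmb8 was also at 0.92 in cluster 1 alone and 0.0188 after thinning, Tap2 at 0.10 in cluster 1 and Psmb9 at -0.034 in cluster 0. In macrophage-like cells Psmb8 was at 0.0059 after thinning, 0.0153 at the 5% mitochondrial limit, 0.10 at resolution 1.2 and 0.0874 without integration.

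Counts of members called (Tumor against DCIS, then Tumor against Prepuberty) moved as follows, and the cause was not tested. With DESeq2 the epithelial-like counts were 1 and 1, and 2 members differed from macrophage-like cells. After thinning 1 was called in epithelial-like and 1 in fibroblast-like cells against Prepuberty, 0 and 2 in macrophage-like cells, and 1 differed from endothelial-like cells. Without integration 1 epithelial-like member was called against Prepuberty, 1 and 0 in fibroblast-like cells, and 0 differed from fibroblast-like or endothelial-like cells. In fibroblast-like cells cluster 13 gave 1 and 0, and against Prepuberty cluster 0 gave 1, cluster 1 gave 0, resolution 1.2 gave 1, and the 4 libraries alone gave 0, as they did in macrophage-like cells. Without TMM the counts were 0 against Prepuberty in fibroblast-like cells, 0 and 0 in macrophage-like cells and 1 and 1 for the differences from fibroblast-like and endothelial-like cells. Without T antigen cells these were 0 in fibroblast-like cells against Prepuberty, and 1 and 0 for the differences. Without the filter 7 were called in endothelial-like cells against Prepuberty, 2 and 2 in macrophage-like cells, 1 for T antigen, and 6 and 1 differed from endothelial-like and macrophage-like cells. RLE scaling gave 1 for each of the 3 differences.

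Leaving out 1 library gave 0 to 7 calls in endothelial-like cells against DCIS and 2 to 7 against Prepuberty, 0 to 3 and 0 to 2 in fibroblast-like cells, 0 to 4 and 0 to 6 in macrophage-like cells, 0 to 1 for T antigen, and 0 to 2, 0 to 6 and 0 to 3 for the differences from fibroblast-like, endothelial-like and macrophage-like cells; a state left with 1 library is assumed to vary like the others. Over all genes, calls from DCIS to Tumor went from 153 in epithelial-like cells to 1593 with DESeq2 and 1980 without the filter, and from 1788 in fibroblast-like cells to 2732, 3223 and, without TMM, 3528.

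With the replicate number as a block, 8 members were called in endothelial-like cells against DCIS and 5 against Prepuberty, 3 and 2 in fibroblast-like, 1 and 1 in macrophage-like and 0 in epithelial-like cells; over all epithelial-like genes it gave 3 calls against DCIS. The labels do not pair the libraries, and same-numbered libraries had correlated deviations of -0.08 to 0.35. Small sums limit the Tumor endothelial-like values, where Nlrc5 rests on 3 and 1 and Tap1 on 24 and 10 UMIs.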
